A study of Danio rerio with 2 samples.

Results

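The actinodin genes and1, and2 and and3 encode structural proteins of actinotrichia, the stiff fibres that hold up the zebrafish fin fold. The members were taken by name from the gene list of the deposited count matrix, where all 3 were found among 15411 genes, and all 3 had counts in both libraries. RefSeq annotates and1, and2 and and3 as protein-coding genes and lists a further actinodin, and4, which was not analysed here.

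The study measured single cells of the caudal fin fold of zebrafish larvae to describe which cell populations make up the regenerating fold. About 150 folds amputated under anaesthesia (cut) and about 150 intact folds (uncut) were collected at 24 h post-amputation and pooled, and each pool gave 1 library of the Chromium 3' assay, which counts molecules by unique molecular identifiers (UMIs). The study lists the AB strain and several transgenic lines, and the one used for these libraries is not given separately. The cut library held 762 cells with a median of 7212 UMIs per cell, and the uncut library 878 cells with a median of 10476.5, with 0 cell barcodes in common. With 1 library per condition no difference between cut and uncut could be tested. Intervals below are exact 95% intervals that cover counting error only, not the spread between pools of larvae.

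Actinotrichia are unmineralized fibres of collagen and actinodin that lie in rows beneath the epidermis of the fin fold, and they are laid down by epidermal cells of the fold margin and by the fin mesenchyme that migrates along them. Actinodins have no counterpart in tetrapods, and knockdown of and1 and and2 in zebrafish is known to leave larval fin folds without these fibres. The fibres are made again when a fin fold regrows. The epithelium at the fold margin, called the apical epithelial cap after amputation, is known for signalling genes such as fgf8a.

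Cells were clustered without and1, and2 and and3, and clusters were named from marker genes, so the names do not rest on the genes described. A level is given as UPM, the UMIs of a gene over all UMIs of the cells in the group, times 1000000. Cluster 1 was named apical epithelial cap-like (46 cut and 133 uncut cells), with 11 of 14 cap markers raised, among them fgf8a, fgf24, sp8a, sp9 and mmp9, but also 8 of 9 basal epidermis markers, among them tp63 and col17a1a. Clusters 2, 4 and 13 were named mesenchyme-like (102 cut and 268 uncut cells) and had 9 of 13 mesenchyme markers raised each, including twist3, prrx1a and prrx1b. Cluster 11 was named basal epidermis-like (55 cut and 32 uncut cells) on 4 of 9 markers, tp63, krtt1c19e, krt91 and cldn1. Superficial epidermis-like cells filled 6 clusters with 438 cut and 323 uncut cells.

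Actinodin RNA was a large part of the fin fold transcriptome. The 3 genes together took 1.65% of all UMIs of the uncut library and 0.531% of those of the cut library. Over all cells, and1 stood at 1639 UPM in cut and 5895 UPM in uncut, from 11530 and 61650 UMIs. The level of and2 was 3149 UPM in cut and 8471 UPM in uncut, and that of and3 was 522 UPM in cut and 2153 UPM in uncut. All 3 genes were thus lower in the cut library, and the log2 ratio of cut over uncut was -1.85 for and1 (interval -1.88 to -1.82), -1.43 for and2 (-1.45 to -1.41) and -2.04 for and3 (-2.10 to -1.99). Of 8401 genes with at least 50 UMIs, 7.7% were lower in cut by 2-fold or more and 2.4% higher, and the median log2 ratio of all of these genes was 0.05. The cell make-up also differed between the libraries. Mesenchyme-like cells made up 13.4% of the cut library (11.05 to 16.01%) and 30.5% of the uncut library (27.5 to 33.7%), and cap-like cells 6.04% (4.45 to 7.97%) and 15.1% (12.8 to 17.7%). Fewer cells of a class and less RNA per cell cannot be told apart in these sums. Within the cap-like and the mesenchyme-like cells, given further on, the log2 ratios were nearer to 0 than over all cells. In superficial epidermis-like cells and1 was further from 0, at -2.75. In a lateral line-like cluster (32 cut and 44 uncut cells) all 3 genes were, at -2.24, -4.04 and -5.55, the last from 1 UMI in cut. These ratios rested on few cells. Of the 44 uncut cells, 7 at or above 1000 UPM held 92.96% of the and1 UMIs. For and2, 7 such cells held 92.2%, and for and3, 2 held 88.3%. The cluster also carried erythroid markers, at a sum of 87811 UPM in cut and 33747 UPM in uncut, with a median cell at 0. The part of cell make-up in the ratios was not tested.

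Most actinodin UMIs came from the cap-like and mesenchyme-like cells. Cap-like cells held 49.5% of the and1 UMIs of the cut library and 47.0% of those of the uncut library, and mesenchyme-like cells 42.7% and 45.2%. For and3 the cap-like cells alone held 89.3% of the UMIs in cut and 93.2% in uncut. The exception was and2 in the cut library, of which 33.3% came from cap-like, 31.8% from mesenchyme-like and 31.8% from superficial epidermis-like cells, against 51.3%, 38.4% and 6.82% in uncut. The and3 shares depend on the class name. With the finer clustering given below, the cap-like cluster held 1873 of 3670 cut and 14505 of 22513 uncut and3 UMIs. Clusters named basal epidermis-like that came from cluster 1 held 991 and 412 in cut and 4251 and 2232 in uncut.

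**Figure D1:**
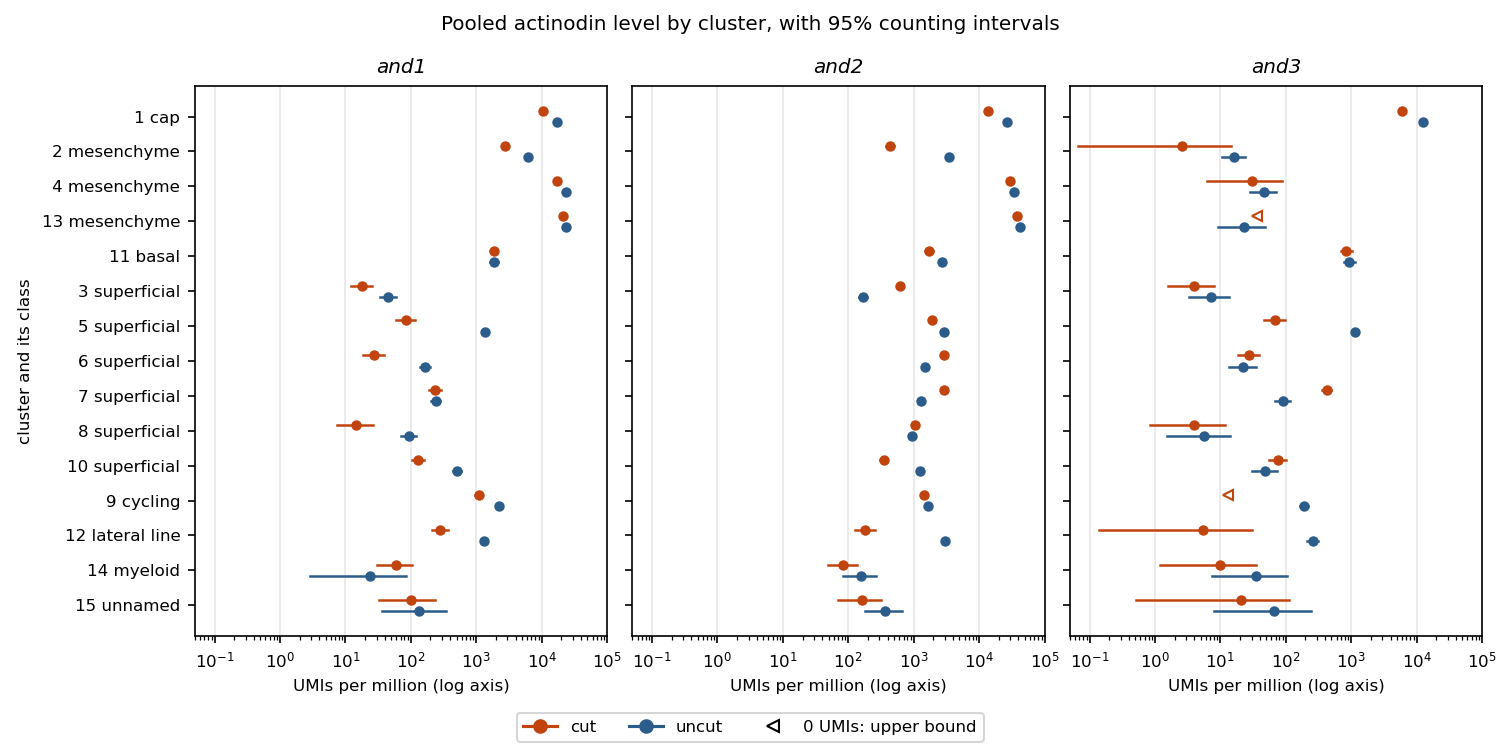
Pooled level of and1, and2 and and3 in UPM (log axis) in each of the 15 clusters, cut and uncut, with exact 95% counting intervals. The cap-like cluster 1 is high for all 3 genes, whereas mesenchyme-like clusters 4 and 13 are high for and1 and and2 and stay under 50 UPM for and3.

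The cap-like cells carried all 3 actinodins. The level of and1 was 10451 UPM in cut (10182 to 10726) and 17051 UPM in uncut (16855 to 17248), that of and2 was 13519 and 26725 UPM, and that of and3 was 5996 and 12342 UPM. And1 was detected in 93.5% of the cut cells (interval 82.1 to 98.6%) and in 94.7% of the uncut cells (89.5 to 97.9%), and and3 in 87.0% and 85.7%. Single cells were far from alike within the cluster. In uncut cells, the per-cell level of and3 was 0 at the 10th percentile, 14453 UPM at the median and 29742 UPM at the 90th percentile, and 1 uncut cell reached 152767 UPM for and2. After each cell was thinned to 2000 UMIs, 29 of 45 cut cells (64.4%) and 110 of 133 uncut cells (82.7%) still held all 3 genes. Per-cell levels of and2 and and3 had Spearman rho 0.49 over 46 cut and 0.09 over 133 uncut cells. The Pearson r of their log2 levels was 0.49 and 0.57, so the 2 measures differed in the uncut cells. For and1 with and2 rho was 0.62 and 0.62, and for and1 with and3 it was 0.72 and 0.52. Genes of the neighbouring classes were present too. Superficial epidermis markers summed to 23583 UPM in cut and 33112 UPM in uncut cap-like cells, with 1 and 0 of 15 at 0, and mesenchyme markers to 185 and 217 UPM, with 7 and 3 of 13 at 0. The part of these markers in the actinodin levels was not tested.

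The mesenchyme-like cells carried and1 and and2 almost without and3. The level of and1 was 8455 UPM in cut (8221 to 8695) and 11861 UPM in uncut (11723 to 12002), and that of and2 was 12073 UPM (11793 to 12359) and 14473 UPM (14320 to 14628). And3 stood at 6.87 UPM in cut, from 4 UMIs in 102 cells, and at 22.96 UPM in uncut, from 54 UMIs in 268 cells. These and3 levels were in the range of the myeloid-like cells, immune cells used here to read background, which had 9.85 UPM in cut and 35.7 UPM in uncut from 2 and 3 UMIs. The mesenchyme-like share of cells with and3 was 2.94% in cut and 14.9% in uncut, at median depths of 3493.5 and 6283.5 UMIs, and that of myeloid-like cells was 5.56% and 20%, at 2488.5 and 5219.5. The and3 of mesenchyme-like cells therefore could not be told from background at this depth.

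The share of and3 among actinodin UMIs was far higher in cap-like and basal epidermis-like cells than in mesenchyme-like cells. It was 20.01% in cut cap-like cells (19.4 to 20.6%) and 22.0% in uncut ones (21.7 to 22.3%). In basal epidermis-like cells it was 19.1% (16.01 to 22.6%) and 16.9% (14.2 to 20.04%), although their levels were far lower. In mesenchyme-like cells it was 0.0334% (0.00911 to 0.0856%) and 0.0871% (0.0654 to 0.114%). Cut and uncut values of these 3 classes lay close to each other beside the distance of the first 2 from mesenchyme. Superficial epidermis-like cells did not share this pattern, with 3.62% in cut (3.21 to 4.07%) and 12.02% in uncut (11.4 to 12.7%), and their cluster 8 had 0.378% in cut (0.0781 to 1.102%), an interval that overlaps that of mesenchyme-like cluster 2 at 0.0812% (0.00206 to 0.452%). This share compares classes, since the 3' capture of the 3 transcripts was not calibrated against each other.

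**Figure D2:**
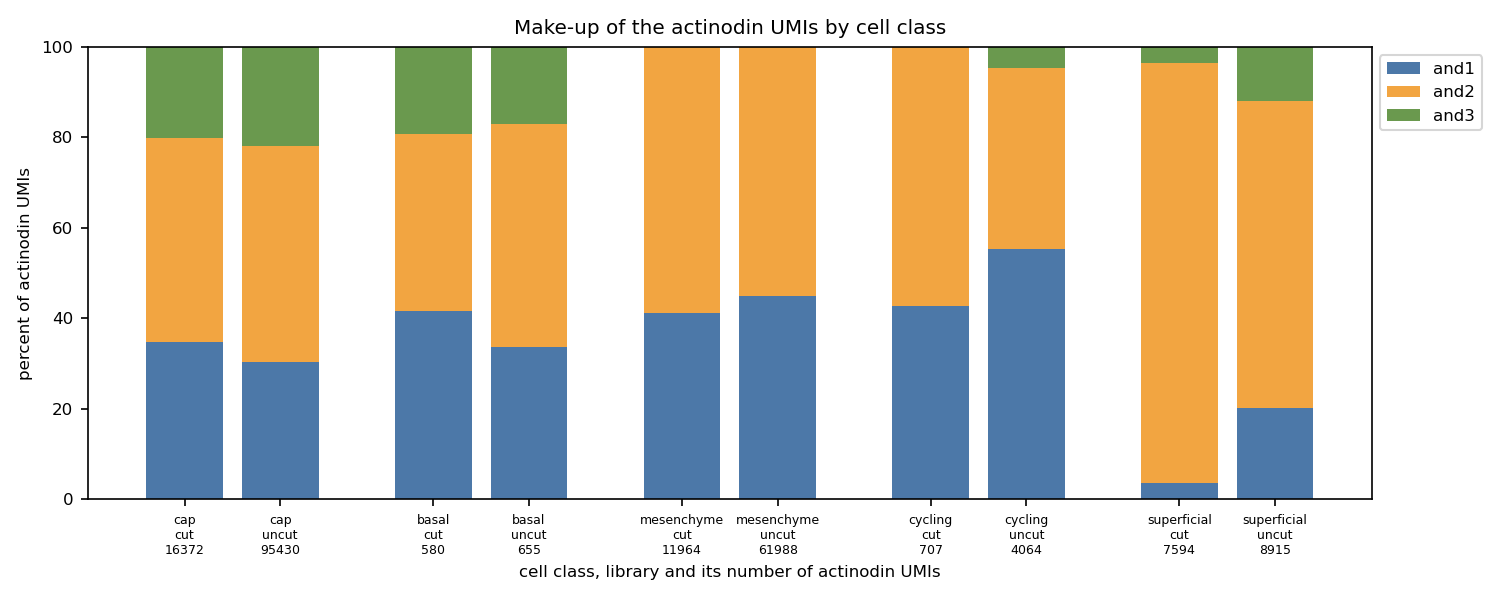
Percent of actinodin UMIs (0 to 100%) that came from and1, and2 and and3 in 5 cell classes, cut and uncut, with the number of actinodin UMIs below each bar. And3 makes up 20.01% and 22.0% of the bar in cap-like cells and too little to be seen in mesenchyme-like cells, and and2 fills 92.7% of the cut bar of superficial epidermis-like cells.

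The basal epidermis-like cluster had low levels of all 3 genes in few, shallow cells. The level of and1 was 1840 UPM in cut (1615 to 2086) and 1861 UPM in uncut (1624 to 2123), that of and2 was 1725 and 2720 UPM, and that of and3 was 844 and 935 UPM. Median depth was 2051 UMIs in cut and 3111 in uncut cells. A minority of cells carried these levels, and 12 of 55 cut cells and 9 of 32 uncut cells at or above 1000 UPM held 100% and 94.6% of the and3 UMIs. In cut these 12 were all the cells with an and3 UMI, so their 100% holds by definition. Within the cluster the per-cell levels of and1 and and3 went together (Spearman rho 0.75 over 55 cut cells and 0.66 over 32 uncut cells, cells of the same library that share dropout and are not replicates). The cluster was not uniform. With the finer clustering given below, 66 of its 87 cells formed a basal epidermis-like cluster that held 111 cut and 110 uncut and3 UMIs. A further 19 cells fell into an unnamed cluster led by hist1h4l, tyms and dut, with 0 of 9 basal epidermis markers raised.

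Finer clustering divided the epidermal actinodin cells further. At a clustering resolution of 2 in place of 1, the 179 cells of cluster 1 fell into a cap-like cluster of 81, a basal epidermis-like cluster of 62 led by krt91 and col17a1a, which took in 1 further cell, and a basal epidermis-like cluster of 36 led by col5a3b, igfbp1a and col11a1a, genes of matrix collagens and an IGF-binding protein. The cap-like cluster of 81 (19 cut and 62 uncut cells) had 13 of 14 cap markers raised and carried all 3 genes, with and3 at 9734 UPM in cut and 17896 UPM in uncut. The col5a3b cluster (9 cut and 27 uncut cells) had the highest and2 level of these clusters, 34478 UPM in cut (32270 to 36796) and 58808 UPM in uncut (57490 to 60149), and actinodins took 7.85% and 10.1% of its UMIs. Its cells were shallow, with a median of 3763.5 UMIs, against 10799 in the cap-like and 16087 in the krt91 and col17a1a cluster. A higher UPM there is thus not more UMIs per cell. It held 7562 and2 UMIs in 27 uncut cells, against 20954 in 62 and 16931 in 44 uncut cells of those clusters. Its and3 level was 15661 UPM in cut, above that of the cap-like cluster, and 17358 UPM in uncut, close to it. The krt91 and col17a1a cluster had and3 at 2996 UPM in cut and 5583 UPM in uncut. The finer basal epidermis-like cluster of 66 cells, all outside cluster 1, had and3 at 1189 and 1250 UPM. In uncut cells, Spearman rho of and2 with and3 was -0.15 over the 62 cells of the cap-like cluster. It was 0.61 over 44 cells of the krt91 and col17a1a cluster and -0.29 over 27 cells of the col5a3b cluster. Cap markers were not confined to the cluster named for them. The col5a3b cluster had 7 of 14 cap and 7 of 9 basal epidermis markers raised, a tie that its leading genes settled. The krt91 and col17a1a cluster had 6 and 8, whereas the basal epidermis-like cluster of 66 cells had 0 and 4. The name basal epidermis thus covers different cells at the 2 resolutions.

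Mesenchyme-like clusters 4 and 13 had far higher levels of and1 and and2, as parts of all UMIs, than cluster 2 in both libraries. Their cells were also shallower, with median depths of 3148 and 4926 UMIs against 10994 in cluster 2. Counts per cell therefore differed less than UPM. In uncut cells, and1 had 9927 UMIs in 117 cells of cluster 2, 10884 in 109 of cluster 4 and 7085 in 42 of cluster 13. For and2 the uncut UMIs were 5591, 15649 and 12798. Cluster 13, led by hapln1a, ecrg4a, tnmd and msx3, had and1 at 21544 UPM in cut and 23536 UPM in uncut and and2 at 38577 and 42515 UPM. Cluster 4, led by tyrosine catabolism genes such as tat, hpdb and pah together with ucp1 and tnmd, had and1 at 17113 and 23792 UPM and and2 at 30137 and 34208 UPM. Cluster 2, led by vim, apln, eve1, zic1 and cdh11, had and1 at 2776 and 6230 UPM and and2 at only 436 and 3509 UPM. For and2 in cut cells that is 436 UPM in cluster 2 (372 to 508) against 38577 UPM in cluster 13 (37373 to 39810), intervals that are far apart. The 3 clusters took like parts of the class in both libraries, 44.1%, 39.2% and 16.7% of cut and 43.7%, 40.7% and 15.7% of uncut mesenchyme-like cells for clusters 2, 4 and 13.

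The balance of and2 to and1 also set cluster 2 apart. There were 1.79 and2 UMIs per and1 UMI in cut (1.70 to 1.89) and 1.81 in uncut (1.75 to 1.86) in cluster 13, and 1.76 and 1.44 in cluster 4. In cluster 2 the ratio was 0.157 in cut (0.133 to 0.185) and 0.563 in uncut (0.545 to 0.582). Across single mesenchyme-like cells, and1 and and2 went together in both libraries (Spearman rho 0.83 over 102 cut and 0.83 over 268 uncut cells), and in cluster 2 alone this was weaker (rho 0.49 over 45 cut and 0.51 over 117 uncut cells). The and2 level of cut cells in cluster 2 rested on 167 UMIs, of which 1 cell held 62.9%.

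**Figure D3:**
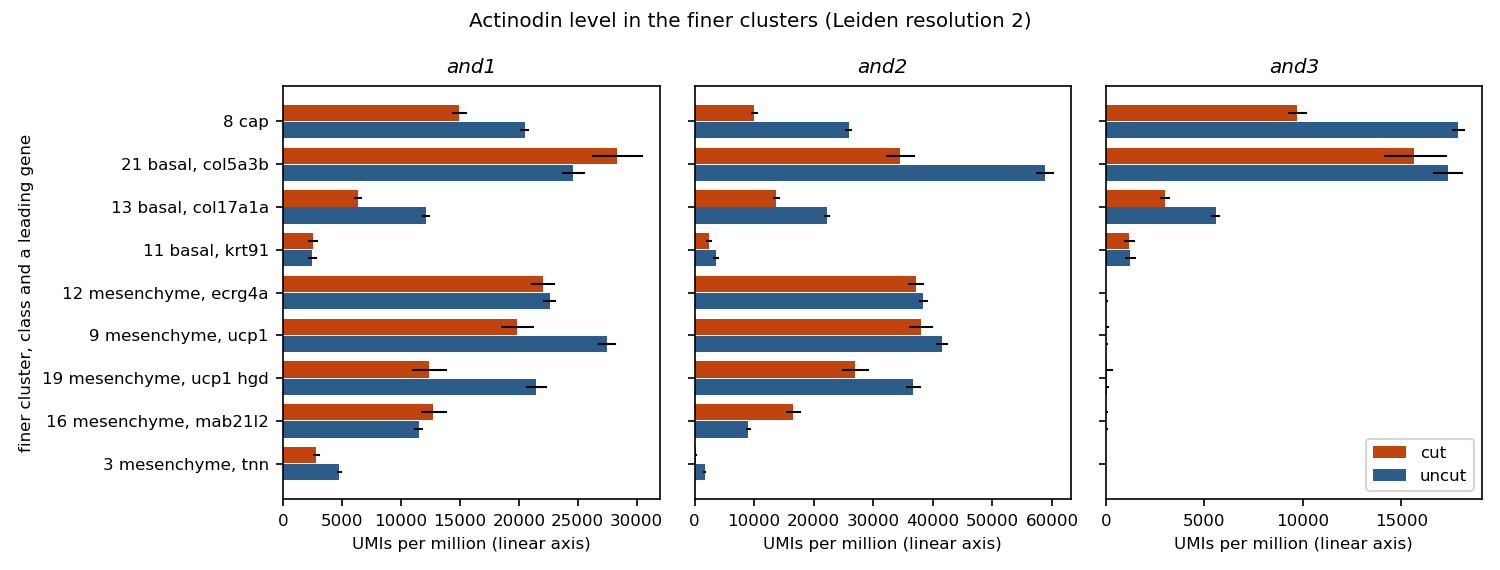
Level of and1, and2 and and3 in UPM (linear axis from 0) in 9 finer clusters that hold the cap-, basal- and mesenchyme-like cells, each named by its class and leading genes, with exact 95% counting intervals as black lines. The col5a3b basal-like cluster has the longest and2 bar (58808 UPM in uncut), and and3 bars are visible only in the cap- and basal-like clusters.

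A cycling-like cluster, number 9, shared 7 mesenchyme markers with the mesenchyme-like cells and had 7 cell cycle markers raised. Its and1 level was 1084 UPM in cut (966 to 1214) and 2258 UPM in uncut (2165 to 2353), under that of every mesenchyme-like cluster. Its and2 level was 1446 and 1639 UPM, of which 1 cell held 55.0% and 46.1% of the UMIs. And3 had 0 UMIs in 36 cut cells, which allows a level of up to 13.2 UPM, and 189 UMIs in uncut cells, of which 1 cell held 91.5%.

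**Figure D4:**
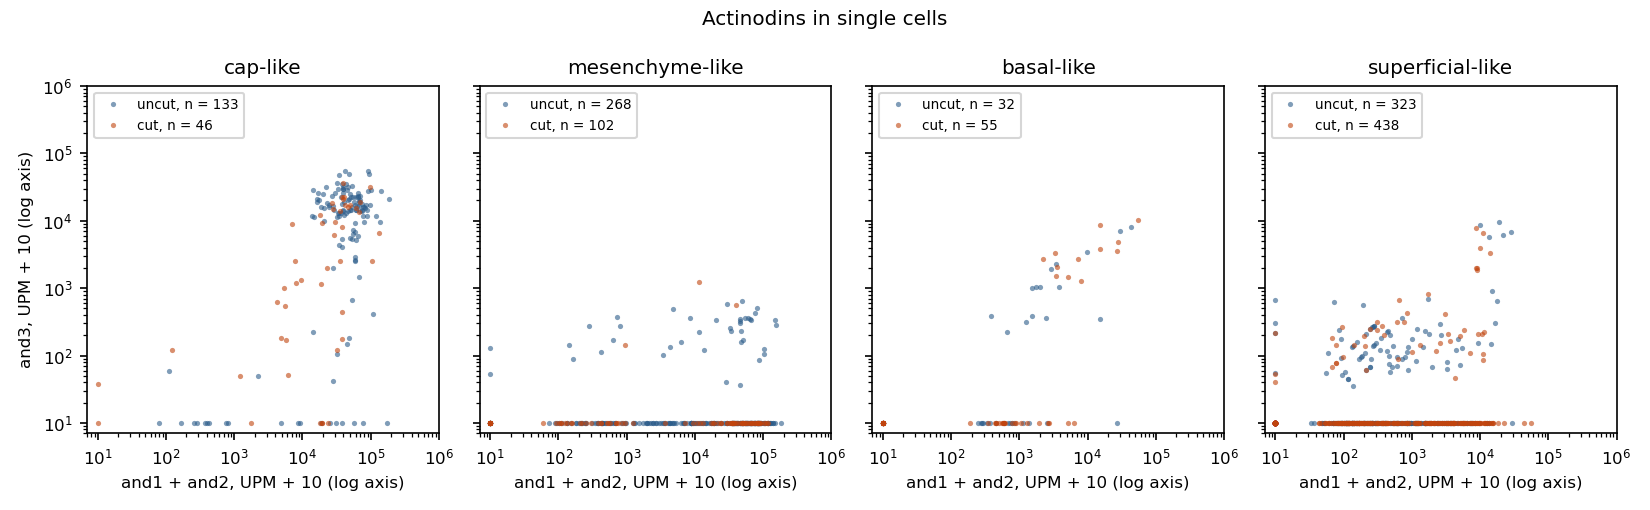
Each point is 1 cell, with the summed level of and1 and and2 on the x axis and that of and3 on the y axis (UPM plus 10, log axes), for cap-, mesenchyme-, basal- and superficial-like cells of the cut and uncut library. Most cap-like cells sit high on both axes, and mesenchyme-like cells spread along the x axis with and3 at or near 0. The few superficial-like cells above 1000 UPM of and3 are also high for the sum of and1 and and2, which does not show each gene alone.

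Within the cap-like cells all 3 actinodins were lower in cut than in uncut. The log2 ratio of cut over uncut was -0.71 for and1 (-0.75 to -0.67), -0.98 for and2 (-1.02 to -0.95) and -1.04 for and3 (-1.10 to -0.99), when the median of the 2902 genes with at least 50 UMIs in these cells was 0.19. In this class 4.2% of genes were lower in cut by 2-fold or more and 9.03% higher, and and3 was the only member past 2-fold, with 3.69% of genes under its ratio. Which member passed 2-fold depended on the processing. And3 was short of it at -0.88 with the finer clustering, at -0.94 as a mean of per-cell levels and at -0.94 and -0.88 in cells thinned to 2000 and 4000 UMIs, and and2 passed it at -1.37 with the finer clustering, -1.54 with K-means, -1.04 in cells with at least 4000 UMIs, -1.16 thinned to 4000 UMIs, -1.01 without marked doublets and -1.01 without the top cell of each library. Median depth in these cells was 9158.5 UMIs in cut and 13048 in uncut. In the finer clusters the ratios of and2 stayed negative, -1.37 in the cap-like cluster of 81 cells, -0.69 in the col17a1a cluster and -0.77 in the col5a3b cluster. For and1 they were -0.46, -0.94 and, in the col5a3b cluster, 0.20 (0.08 to 0.32), where 1 of 9 cut cells held 34.8% of the and1 UMIs. For and3 they were -0.88 (-0.95 to -0.81), -0.90 (-0.999 to -0.798) and -0.15 (-0.30 to 0.0039), the last with an interval that held 0. Of all genes in these 3 clusters, 7.41%, 4.29% and 7.25% were lower in cut by 2-fold or more and 10.4%, 12% and 7.85% higher.

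Within the mesenchyme-like cells the differences were smaller. The log2 ratio was -0.49 for and1 (-0.53 to -0.44) and -0.26 for and2 (-0.30 to -0.22), with a median of 0.21 over 3887 genes. In this class 2.52% of genes were lower in cut by 2-fold or more and 5.45% higher, and neither gene passed 2-fold. For and3 the ratio of -1.74 (-3.67 to -0.30) came from 4 UMIs in cut. The high-actinodin clusters were close between the libraries for and2, at -0.14 (-0.19 to -0.09) in cluster 13 and -0.18 (-0.24 to -0.13) in cluster 4. For and1 the ratio was -0.13 (-0.20 to -0.06) in cluster 13 but -0.48 (-0.55 to -0.40) in cluster 4, near that of the class. In clusters 13 and 4, 4.09% and 3.08% of genes were lower in cut by 2-fold or more and 9.34% and 6.72% higher. The low-actinodin cluster 2 had and2 at -3.01 (-3.24 to -2.79) and and1 at -1.17 (-1.26 to -1.07), when 4.14% of its genes were lower in cut by 2-fold or more, 5.49% were higher and 0.493% had a ratio as low as that of and2. One finer mesenchyme-like cluster, led by mab21l2, loxa and sfrp2, went the other way, with and2 at 16585 UPM in its 12 cut cells and 9023 UPM in its 43 uncut cells, a log2 ratio of 0.88 (0.77 to 0.99), when 10.3% of its genes were higher by 2-fold or more and 8.85% lower. Markers of other cells also differed between the libraries. In cluster 2, muscle markers summed to 5215 UPM in cut and 2765 UPM in uncut (1 and 1 of 7 at 0), pigment markers to 1285 and 76.6 UPM (3 and 4 of 7 at 0) and notochord markers to 2.61 and 239 UPM (3 and 0 of 4 at 0), with a median cell at 0 for each. At the finer clustering 18 cells of the mesenchyme-like class fell into an unnamed cluster led by gfap and 5 into an erythroid-like one. The part of these cells in the ratios was not tested. Leaving the 3 genes in the clustering moved the class ratio of and1 to -0.14 and that of and2 to -0.016, and restricting it to cells with at least 4000 UMIs gave -0.70 and -0.66.

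In the basal epidermis-like cells, and1 and and3 had intervals that held no difference. Their log2 ratios were -0.02 (-0.29 to 0.25) and -0.15 (-0.54 to 0.24), and that of and2 was -0.66 (-0.91 to -0.41), with a median of 0.16 over 369 genes, of which 4.88% were lower by 2-fold or more and 7.59% higher. The cut and uncut cells of this class were unlike in other genes, with basal epidermis markers at a sum of 13606 UPM in cut and 28827 UPM in uncut (0 and 0 of 9 at 0), cap markers at 2045 and 960 UPM (3 and 5 of 14 at 0), superficial epidermis markers at 22773 and 31657 UPM (5 and 7 of 15 at 0) and pigment markers at 1627 and 0 UPM (5 and 7 of 7 at 0). Their part in the ratios was not tested. Among cells with at least 4000 UMIs the ratio of and1 was -2.62 and that of and2 -5.04, values from the few deep cells of this shallow cluster. With the basal epidermis-like class of the finer clustering, which takes in most cells of cluster 1, the ratios were -0.92 for and1, -1.01 for and2 and -1.004 for and3.

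**Figure D5:**
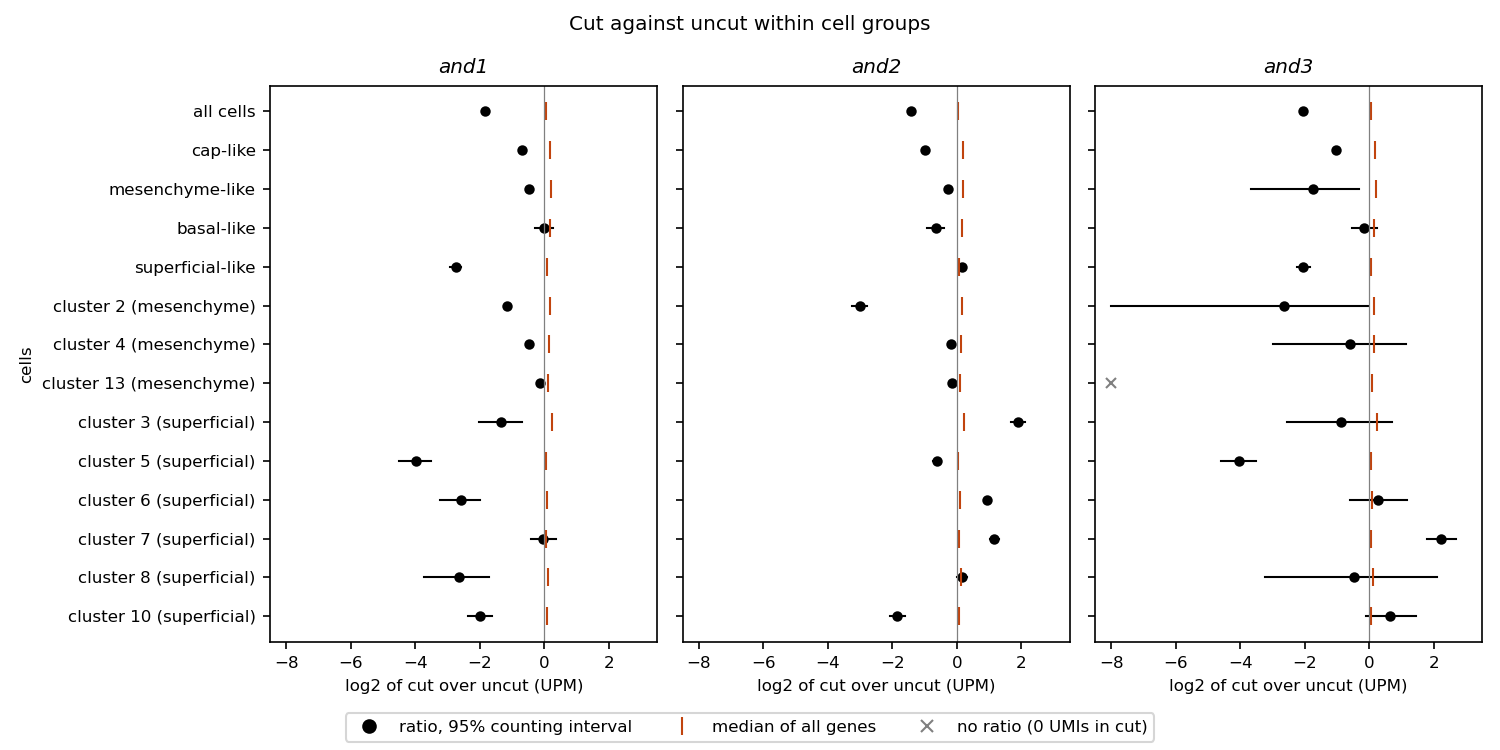
Log2 ratio of cut over uncut of and1, and2 and and3 with exact 95% counting intervals, over all cells, within 4 classes and within the mesenchyme- and superficial-like clusters, with the median of all genes counted in the same cells as a vertical tick. All 3 genes lie left of 0 over all cells and in cap-like cells, whereas and2 in superficial-like clusters 3, 6 and 7 lies right of 0 at 1.90, 0.93 and 1.17.

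The superficial epidermis-like cells, the outer layer of the larval skin, held mostly and2, which was 92.7% of their actinodin UMIs in cut and 67.7% in uncut. Its level was 1391 UPM in cut (1358 to 1424) and 1254 UPM in uncut (1223 to 1286), with detection in 58.7% of cut (53.9 to 63.3%) and 82.0% of uncut cells (77.4 to 86.1%), at median depths of 9882 and 13255 UMIs. The level of and1 was 55.5 UPM in cut and 375 UPM in uncut, and that of and3 was 54.3 and 223 UPM. The and2 was not evenly spread, since 135 of 438 cut cells and 87 of 323 uncut cells at or above 1000 UPM held 95.3% and 89.6% of the UMIs.

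These cells had 25.05 and2 UMIs per and1 UMI in cut (22.2 to 28.3) and 3.35 in uncut (3.18 to 3.53). The same ratio was 1.29 and 1.57 in cap-like and 1.43 and 1.22 in mesenchyme-like cells, the classes with most actinodin RNA. In myeloid-like cells, with 31 and 18 actinodin UMIs, it was 1.42 in cut (0.638 to 3.25) and 6.5 in uncut (1.47 to 59.3). The cut ratio in superficial cells lay outside the intervals of these 3 classes, whereas the uncut ratio lay within the wide interval of myeloid-like cells. For and1 in cut the share of superficial cells with a UMI, 21.5%, was under that of myeloid-like cells, 25%. Over the class this share was thus not above background, whereas for and2 it was 58.7% against 27.8%. By level, cut and1 was 84.9, 238 and 129 UPM in superficial clusters 5, 7 and 10. In clusters 3, 6 and 8 it was 17.8, 27.5 and 14.7 UPM, against 59.1 UPM in myeloid-like cells from 12 UMIs. In uncut the class had 375 UPM of and1, against 23.8 UPM in myeloid-like cells from 2 UMIs. Mesenchyme markers were near 0 in superficial cells, at a sum of 2.96 UPM in cut and 13.9 UPM in uncut with 4 and 3 of 13 markers at 0. Cap markers summed to 666 and 733 UPM with 0 of 14 at 0, and basal epidermis markers to 4301 and 2876 UPM with 0 of 9 at 0. The part of these markers in the and2 level was not tested.

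Superficial clusters with and2 differed in their other genes. Clusters 5, 6 and 7 had 10 or 11 of 15 superficial epidermis markers raised. They had only 3, 2 and 4 of 14 cap markers raised, among them sp8a and sp9, transcription factors of the fin fold margin, but not fgf8a. Their and2 level was 1891, 2858 and 2881 UPM in cut and 2880, 1499 and 1282 UPM in uncut. Clusters 3, 8 and 10 had none of the 14 cap markers raised and had and2 at 623, 1043 and 347 UPM in cut and 167, 935 and 1240 UPM in uncut. The cut levels of clusters 5, 6 and 7 thus lay above those of clusters 3, 8 and 10, and in uncut cells only cluster 5 stood well apart. In cut cells of cluster 6 there were 104 and2 UMIs per and1 UMI (72.2 to 155).

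Cut against uncut, the superficial epidermis-like class had and2 at a log2 ratio of 0.15 (0.10 to 0.20) and and1 and and3 at -2.75 (-2.94 to -2.57) and -2.03 (-2.23 to -1.84), with a median of 0.07 over 6159 genes, of which 1.1% were lower by 2-fold or more and 2.29% higher. The and2 ratio over the class joined clusters that differed in direction. It was 1.90 (1.68 to 2.12) in cluster 3, 0.93 (0.84 to 1.03) in cluster 6 and 1.17 (1.04 to 1.30) in cluster 7, where 4.14%, 2.38% and 2.42% of genes were higher in cut by 2-fold or more and 0.345%, 0.47% and 1.08% lower. It was 0.16 (0.01 to 0.31) in cluster 8, where 3.57% were higher and 1.54% lower. In cluster 5 it was -0.61 (-0.72 to -0.49) and in cluster 10 it was -1.84 (-2.07 to -1.61), where 2.23% and 1.94% were lower and 1.34% and 2.57% higher. And3 was also higher in cut cells of cluster 7, at 426 UPM against 91.1 UPM, a log2 ratio of 2.23 (1.78 to 2.68), with 34.6% of the cut UMIs in 1 cell. Few uncut cells held most of the and1 and and3 UMIs, and the part of these cells in the ratios was not tested. Without the top cell of each library the class ratios of and1 and and3 were -2.68 and -1.94. In uncut cells, 16 of 323 cells at or above 1000 UPM held 82.1% of the and1 UMIs and 5 held 86.4% of the and3 UMIs, and without the cells that a doublet caller marked the class ratio of and1 was -2.40 and that of and2 0.30.

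Over the 29 groups formed by cluster and library with at least 10 cells, the gene whose pattern was most like that of and1 was col1a1a, which encodes a chain of fibrillar collagen I (Pearson r 0.98 of log2 levels). It was followed by sparc, a collagen-binding matrix protein, at 0.96, and by vcanb, a versican proteoglycan, capn12, a calpain protease, and si:ch73-86n18.1 at 0.94, 0.94 and 0.94. For and2 the 5 genes were ogna, a small leucine-rich proteoglycan, at 0.88, sema3e, a semaphorin, at 0.88, the homeobox genes msx1b and msx2b at 0.87 and 0.85, and arl4ca, a small GTPase, at 0.87. For and3 they were ptgdsb.1, a prostaglandin D synthase, at 0.94, zgc:162509 at 0.92, apoeb, an apolipoprotein, at 0.90, ecrg4b at 0.89 and si:ch211-251f6.6 at 0.86. And1 and and2 had r 0.80 with each other and each had r 0.37 with and3. These groups share 2 libraries and their depth, and the r values are a description of 5172 ranked genes.

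The levels of these genes by class did not match those of the members in every respect. Col1a1a was at 10830 UPM in cut and 19885 UPM in uncut cap-like cells, at 28083 and 43299 UPM in mesenchyme-like cells and at 110 and 677 UPM in superficial cells, whereas and1 was higher in cap-like than in mesenchyme-like cells. Ptgdsb.1 was at 4568 and 7929 UPM in cap-like, 1095 and 2897 UPM in basal epidermis-like and 48.1 and 49.7 UPM in mesenchyme-like cells, the order of and3 over these 3 classes. Msx2b was at 445 and 281 UPM in cap-like, 251 and 199 UPM in mesenchyme-like and 80.6 and 108 UPM in superficial cells, higher in cut in the first 2 classes, where and2 was lower in cut.

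Of 52 other genes listed for fin fold fibres and fin identity, 47 were in the matrix. In cap-like cells 19 of them had at least 50 UMIs, of which 3 were lower in cut by 2-fold or more (background 4.2%) and 1 higher (9.03%), with a median log2 ratio of -0.31 against 0.19 over all genes. The 3 were col1a1b at -1.51 (-1.65 to -1.37) and col1a2 at -1.23 (-1.36 to -1.10), chains of collagen I, and pcolcea, an enhancer of procollagen cleavage, at -1.31 (-2.69 to -0.17). In mesenchyme-like cells 32 had enough UMIs, of which 2 were lower (2.52%) and 1 higher (5.45%), with a median of -0.01 against 0.21. In basal epidermis-like cells 5 did, of which 0 passed 2-fold (4.88% lower and 7.59% higher over all genes there).

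Among fibre collagens, col1a1a was at a log2 ratio of -0.88 in cap-like cells (-0.92 to -0.84) and -0.62 in mesenchyme-like cells (-0.65 to -0.60). Col1a1b and col1a2 were at 0.05 and 0.28 in mesenchyme-like cells, where 1 cut cell held 572 of 1144 and 890 of 1744 UMIs. Col2a1b, a collagen II gene, was at -0.70 and -0.31 in cap-like and mesenchyme-like cells. The cartilage and notochord collagens col2a1a and col9a1b were the 2 genes lower in mesenchyme-like cells, with 0 UMIs in cut and 997 and 519 in uncut, of which 1 cell held 493 and 267.

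Collagen-modifying genes had ratios on both sides of 0. Sparc was at -0.17 (-0.23 to -0.10) in cap-like and -0.43 (-0.50 to -0.37) in mesenchyme-like cells, and loxa, a lysyl oxidase that crosslinks collagen, at -0.32 (-0.54 to -0.10) in mesenchyme-like cells. P4hb, a subunit of the enzyme that hydroxylates collagen prolines, was higher in cut at 0.83 (0.50 to 1.16) and 0.84 (0.61 to 1.07), short of 2-fold, and the collagen chaperone gene serpinh1b was at -0.46 (-1.01 to 0.07) and 0.19 (-0.12 to 0.48). Of the genes that anchor fin fold epidermis to dermis, fras1 was at 0.33 (0.10 to 0.55) in cap-like cells, lama5, a laminin chain, at -0.05 (-0.30 to 0.20), frem2a at 0.10 (-0.18 to 0.37) and frem2b at 1.13 (0.61 to 1.65). Among the distal Hox genes in mesenchyme-like cells, the intervals held 0 for hoxb13a at -0.11 (-0.36 to 0.14), hoxa13a at -0.32 (-0.76 to 0.10) and hoxc13b at 0.38 (-0.00073 to 0.74), while hoxc13a was at -0.49 (-0.77 to -0.21). Hoxd13a, the 1 gene higher by 2-fold there, was at 1.05 (0.15 to 1.91) from 18 and 35 UMIs.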

How the data were processed

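Reads were aligned to danRer11 and collapsed to UMI counts with Cell Ranger 3.1.0 by the authors, who deposited 1 count matrix per library and 1 aggregated matrix. In the aggregated matrix, used here, uncut counts were those of the uncut library whereas the cut library kept 95.3% of its separate total (7033569 UMIs, against 10458222 in uncut). Cells per library spanned 1519 to 60124 UMIs in cut and 2557 to 64483 in uncut. Cells were assigned to libraries by barcode. Log-normalized counts were reduced to 10 principal components and clustered by Leiden (leidenalg 0.10.2, resolution 1, 15 neighbours), without the 3 members. A cluster took the class with most raised markers (at least 3, log2 ratio of at least 0.5, UMIs in at least 25% of cells), a rule set after the data were seen, as was the limit of 1000 UPM. Of 145 markers in 16 classes, 134 were found. The loading aimed at 4000 cells per library. Scrublet (scanpy 1.11.5) marked 0 cut and 5 uncut cells, and its lack of calls in the cut library leaves doublets there unchecked. Ratios carry exact conditional counting intervals, levels exact Poisson and shares Clopper-Pearson intervals, and the scripts were tested on simulated data. For the medians, 2-fold counts and ranks over all genes, a count under 3 UMIs in a library was set to 3. The printed ratios of the members used their own counts. Named genes were the members, the 5 genes most correlated with each over groups of at least 10 cells (log2 of UPM plus 10, genes with at least 200 UMIs), and the 4 listed genes per group of highest level. The members and lists were chosen with earlier results of these data known. No sequences were used here.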

Additional observations from a re-analysis of the deposited data

Results flagged for a closer look

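The and2 level of superficial epidermis-like cells was higher in cut than in uncut, at a log2 ratio of 0.15, whereas it was lower in cut in cap-like, mesenchyme-like and basal epidermis-like cells. The direction differed between classes with 1 library each, and the difference was not tested.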

How the results depend on the processing

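No paired analysis was possible because each condition had 1 library, and no library could be left out. Of 137 alternative log2 ratios of cut over uncut, 134 kept their sign, and the 3 that did not were basal epidermis-like and1 and and3 values inside the counting interval of the reported ratio. Alternatives that gave no ratio are not in this count. They were mesenchyme-like and3 thinned to 2000 UMIs and basal epidermis-like and2 thinned to 4000 UMIs. Basal epidermis-like and3 in cells with at least 4000 UMIs and thinned to 4000 UMIs was also left out. Alternatives for the superficial epidermis-like class were chosen after seeing the data and held no other clustering. The other ratios moved as follows, in the order all cells, mesenchyme-like, cap-like, basal epidermis-like and superficial epidermis-like where a class moved by more than its counting interval. From the separate matrices and1 was -1.81 over all cells, -0.44 in mesenchyme-like and -0.66 in cap-like cells. In cells with at least 4000 UMIs and1 was -2.04, -0.70, -0.79 and, in basal epidermis-like cells, -2.62, and and2 was -1.56, -0.66, -1.04, -5.04 and, in superficial cells, 0.054. Without the cell of each library with most UMIs of the gene, and1 was -1.90, -0.56 and -0.81, and2 was -1.47 over all cells, -0.40 in mesenchyme-like, -0.98 in basal epidermis-like and 0.20 in superficial cells, and and3 was -2.23 over all cells and -1.21 in cap-like cells. As means of per-cell UPM, and1 was -1.61 over all cells, -0.37 in cap-like and -1.94 in superficial cells, and2 was -1.38, -0.89 and 0.46 there, and and3 was -0.94 in cap-like and -0.94 in superficial cells. Thinned to 2000 UMIs, and1 was -1.68, -0.59, -0.32 and, in superficial cells, -2.03, and2 was -1.50, -0.54, -0.85 and 0.36, and and3 was -1.97 over all cells, -0.94 in cap-like and -1.50 in superficial cells. Thinned to 4000 UMIs, and1 was -2.09 over all cells, -0.81 in mesenchyme-like, -2.13 in basal epidermis-like and -1.88 in superficial cells, and2 was -1.78, -0.94 and, in cap-like cells, -1.16, and and3 was -1.94 over all cells, -0.88 in cap-like and -0.77 in superficial cells. At a clustering resolution of 0.5, mesenchyme-like and1, and2 and and3 were -0.60, -0.35 and -4.07. At resolution 2, and1 was -0.37 in mesenchyme-like, -0.46 in cap-like and -0.92 in basal epidermis-like cells, and2 was -0.17, -1.37 and -1.01, and and3 was -0.88 in cap-like and -1.004 in basal epidermis-like cells. With K-means in 20 clusters, and1 was -0.56 in cap-like and -0.93 in basal epidermis-like cells, and2 was -0.19 in mesenchyme-like, -1.54 in cap-like and -1.05 in basal epidermis-like cells, and and3 was -1.57 and -0.96 in the latter classes. With the members kept in the clustering, mesenchyme-like and1 was -0.14 and and2 -0.016. Without the cells Scrublet marked, superficial and1, and2 and and3 were -2.40, 0.30 and -1.79.

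Of 42 alternative and3 shares of actinodin UMIs, 33 moved by less than their interval. The share in mesenchyme-like uncut cells was 0.383% at resolution 0.5. In cap-like cells it was 28.1% in cut and 27.9% in uncut at resolution 2, 22.0% and 29.2% with K-means, and 21.5% in uncut cells with at least 4000 UMIs. In basal epidermis-like cut cells it was 14.7% at resolution 2, and in cells with at least 4000 UMIs 0% in cut and 24.1% in uncut. With at least 200 UMIs asked of a gene, fewer genes were counted and a smaller share passed 2-fold. The number was 398 of 5173 over all cells (7.69%), 89 of 918 in cap-like (9.69%), 79 of 1207 in mesenchyme-like (6.55%) and 11 of 153 in basal epidermis-like cells (7.19%). With at least 50 UMIs it was 849 of 8401 (10.1%), 384 of 2902 (13.2%), 310 of 3887 (7.98%) and 46 of 369 (12.5%). The causes of these moves were not tested. The and3 values of mesenchyme-like cells rested on 4 UMIs in cut, and all values of the basal epidermis-like cluster came from shallow cells.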
